A study of Mus musculus with 2 samples.

Results

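Oligodendrocytes wrap axons in myelin, and single-cell studies of the mouse brain divide the mature cells into populations that express the prostaglandin synthase gene Ptgds, populations that express the kallikrein protease gene Klk6, and cells with little of either. The cells described here are those with little Ptgds and no Klk6 in the thalamus. They were chosen by measured values: a cell was taken when Mog, Mag and Ermn, which encode myelin and cytoskeletal proteins of mature oligodendrocytes, summed to at least 5 unique molecular identifiers (UMIs) per 10000 of the cell, when Ptgds was below 20 per 10000, and when Klk6 was at 0 UMIs. Pdgfra, Gpr17, Enpp6, Aqp4, Cldn5 and Cx3cr1, which mark precursors, newly formed oligodendrocytes, astrocytes, endothelial cells and microglia, were each limited to 2 UMIs. The rule kept 477 of 15804 cells that passed quality limits (at least 500 genes and 1000 UMIs, at most 15% mitochondrial UMIs), 78 of 6366 in mouse 1 and 399 of 9438 in mouse 2. They are called Ptgds-low cells below.

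The thalami came from 2 untreated wildtype C57BL/6J mice aged 2 months, an inbred strain with no transgene, and each mouse gave 1 library. All comparisons are therefore between cells of the same 2 animals. Comparison cells passed the same limits. Ptgds-high cells (1337 and 1876) had Ptgds at or above 20 per 10000 and no Klk6, and Klk6 cells (99 and 131) had at least 1 Klk6 UMI at any Ptgds level. Levels are given as UMIs per 10000 UMIs of the summed class, for mouse 1 and mouse 2 in that order. The libraries held 163418203 and 204839993 UMIs, and 36 barcodes occurred in both, 18 of them among kept cells.

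Myelin is built from a small set of very abundant proteins, among them myelin basic protein (Mbp), and from cholesterol and sphingolipids that the cell makes itself. Oligodendrocytes pass through stages marked in turn by Pdgfra, Gpr17 with Enpp6, and then the genes of mature myelinating cells. Ptgds encodes prostaglandin D synthase (chromosome 2, 25466709 to 25470046, minus strand, GRCm38), and Klk6 encodes a secreted serine protease (chromosome 7, 43824499 to 43832030, plus strand).

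Ptgds-low cells made up 5.15% of the 3 oligodendrocyte classes in mouse 1 and 16.6% in mouse 2. Exact binomial bounds at 95%, for counting error alone, were 4.09 and 6.39% for the first and 15.1 and 18.1% for the other. When each cell was thinned to 5000 UMIs and the rule applied again, which left out 35 and 144 Ptgds-low cells below that depth, the shares were 9.26% and 20.03%. With at least 1000 genes and 3000 UMIs per cell they were 3.28% and 14.5%. With a mitochondrial limit of 5% they were 9.04% and 10.1%, with overlapping bounds of 6.18 to 12.6% and 8.51 to 11.9%. The share was higher in mouse 2 in each of these cases, but by little at that limit. With 1 library per mouse, the animals and the libraries cannot be told apart.

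The threshold ran through a continuous distribution of Ptgds. In mouse 1, 21 Ptgds-low cells lay within 5 per 10000 below the limit and 11 Ptgds-high cells within 5 above it, and in mouse 2 there were 48 and 44. Ptgds was at 0 UMIs in 4 and 58 Ptgds-low cells. The summed Ptgds level was 10.1 and 8.40 in Ptgds-low cells against 179 and 118 in Ptgds-high cells. The Klk6 class rested on few molecules: 84 of 99 and 99 of 131 cells carried a single UMI, and only 6 and 17 carried 3 or more. Of the Klk6 cells, 85.9% and 44.3% were also at or above the Ptgds limit.

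The values did not show a single mature oligodendrocyte identity for these cells. The Mog, Mag and Ermn sum also admitted the cells of all 3 classes, so it is given as description. The median Mog, Mag and Ermn sum was 17.9 and 21.7 per 10000 in Ptgds-low cells, against 48.9 and 45.1 in Ptgds-high cells and 52.2 and 50.5 in Klk6 cells. In 31 and 57 Ptgds-low cells that sum rested on 1 to 3 UMIs. The ferritin gene Fth1 had a median of 46.8 and 16.2 per 10000 against 128 and 114 in Ptgds-high cells. Cytosolic ribosomal protein genes held a median of 2.88% and 0.798% of a cell's UMIs, against 3.81% and 3.25%. Depth moved with the class: the median was 8734 and 6262 UMIs in Ptgds-low cells, 22413 and 13357 in Ptgds-high cells, and 24959 and 13937 in Klk6 cells. The part of depth in the class differences was not tested as a cause, and fits in a depth band and on thinned cells are given below.

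**Figure D1:**
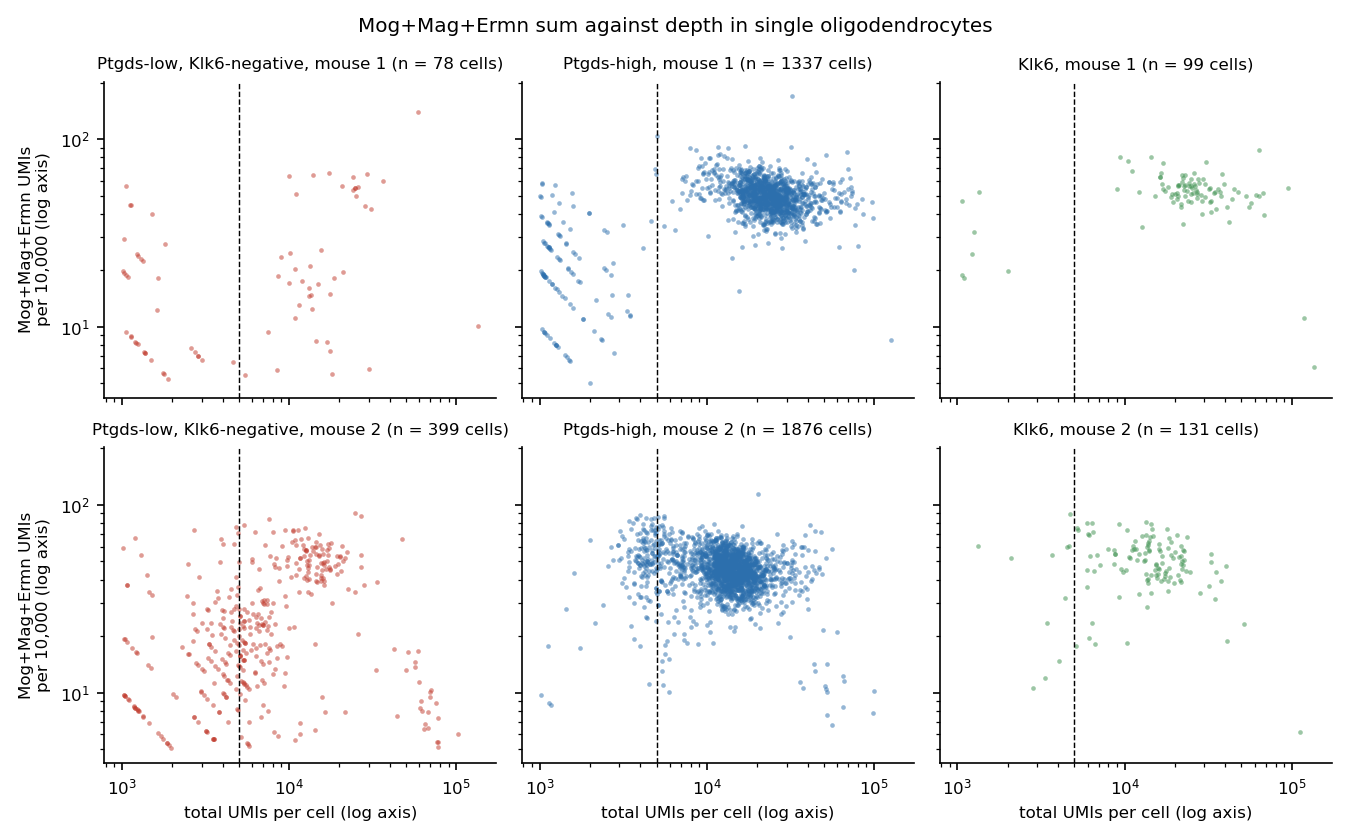
Sum of Mog, Mag and Ermn UMIs per 10,000 (log axis) against total UMIs (log axis) for every cell of the 3 classes in each mouse; each point is a cell and the dashed line marks 5000 UMIs. In the left panels 35 of 78 and 144 of 399 Ptgds-low cells lie left of the line, and 27 and 82 have a sum below 10. The sums of Ptgds-high cells cluster around their medians of 48.9 and 45.1.

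Other cell types' transcripts were present in a part of the Ptgds-low cells. At least 1 of 7 marker lists of other types (astrocyte, microglia, endothelial, mural, neuron, fibroblast, erythrocyte) reached 20 per 10000 in 37 cells of mouse 1 (47.4%) and 80 of mouse 2 (20.1%), against 8.68% and 2.35% of Ptgds-high cells. In mouse 1 the lists at this level were mostly microglia (22 cells), erythrocyte (19) and endothelial (15). In mouse 2 the neuron list led, with 51 cells. The Mog, Mag and Ermn limit was also reached by cells that were not candidates: of cells with more than 2 Cx3cr1 UMIs, which microglia express, 6.55% and 6.94% met it. Among such cells below 5000 UMIs, 12 of 39 met it in mouse 1 and 0 of 20 in mouse 2.

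The 477 cells were therefore described in 3 portions, defined after their values were seen and not tested against each other. A fit on cells limited in the same way, given below, is description for the same reason. Cells with another type's list at 20 per 10000 or more numbered 37 and 80. Of the rest, 3 and 102 had fewer than 5000 UMIs and are called shallow, and 38 and 217 had 5000 or more and are called deeper.

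Most cells with other lists were shallow, with a median of 1373 and 3669.5 UMIs, yet the 80 cells of mouse 2 held 1831008 of the 4553282 UMIs of its Ptgds-low cells. They had a median of 2 and 3 UMIs of Mog, Mag and Ermn together. Their summed microglia list was 26.4 and 1.01 per 10000, the neuron list 36.7 and 47.5, the mural list 20.2 and 4.18, and the endothelial list 6.39 and 1.00. These sums weigh deeper cells more. In the median cell of mouse 1 the neuron list was at 1.14 and the microglia list at 62.2, and they reached 20 in 5 and 22 cells. All 8 neuron markers were detected in mouse 2, and in mouse 1 Slc17a7 was at 0. The erythrocyte list stood at 919 in mouse 1 and 3.58 in mouse 2. Mobp, which encodes a myelin-associated protein, stood at 5.25 and 4.32 in them, far below the 23.2 and 20.8 of Ptgds-high cells. Scrublet called 1 and 12 of these cells doublets.

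Shallow cells without other lists came almost only from mouse 2, where their median depth was 3771 UMIs. In these 102 cells Prr5l, which encodes a regulator of the mTORC2 kinase complex, was at 27.0 per 10000 against 13.0 in Ptgds-high cells of that mouse. Grm3, a metabotropic glutamate receptor gene, was at 18.8 against 10.7. Mobp stood at 13.3 against 20.8 and Mbp at 29.1 against 41.7, while Fth1 stood at 17.3 against 111. Ribosomal protein genes held a median of 0.507% of their UMIs and mitochondrial genes 12.2%, against 3.25% and 4.75%. Malat1, a nuclear long noncoding RNA, had a median of 444 per 10000 against 382. These cells thus combined high Prr5l and Grm3 with little Fth1 and ribosomal protein RNA. The neuron list stood at 4.58 and the microglia list at 0.822, both below 20 in each cell by the way the portion was defined.

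In deeper Ptgds-low cells the 6 counted mature oligodendrocyte markers other than Mog, Mag and Ermn, which the rule used, were detected in both mice. With those 3 the list summed to 168 and 156 per 10000, against 158 and 152 in equally limited Ptgds-high cells. The order was opposite in the median cell, at 136 and 145 against 157 and 151. The list of committed or newly formed oligodendrocytes did not define this portion, but the rule limited its members Gpr17 and Enpp6 to 2 UMIs in each cell. The list reached 20 per 10000 in 8 of the 38 cells in mouse 1 (21.1%) and 5 of the 217 in mouse 2 (2.30%), against 0.331% and 1.01% of equally limited Ptgds-high cells. A limit in UMIs allows a higher level per 10000 in cells of lower depth, and its part in these shares was not tested. Lists of other types were below 20 in each cell by definition: the neuron list was 0.673 and 1.98, the microglia list 1.19 and 0.373, and the endothelial list 0.701 and 0.267. Slc17a7, Gad2, Cdh5, Tagln and Myl9, markers of neurons, endothelial and mural cells, were at 0 in mouse 1, and Kcnj8, a mural marker, was at 0 in mouse 2. Their median depth was 15202.5 and 8692 UMIs, still below the 23417 and 13806 of equally limited Ptgds-high cells. The median Mog, Mag and Ermn sum was 22.3 and 35.7 against 49.7 and 44.98. The median share of ribosomal protein RNA was 0.512% and 1.28% against 3.81% and 3.33%, and the median Fth1 level 8.09 and 55.2 against 132 and 117. Depth, ribosomal protein RNA and Fth1 therefore still differed from Ptgds-high cells in this portion, and their part in the gene differences below was not tested. Deeper cells were 2.84% and 10.7% of the equally limited cells of the 3 classes.

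**Figure D2:**
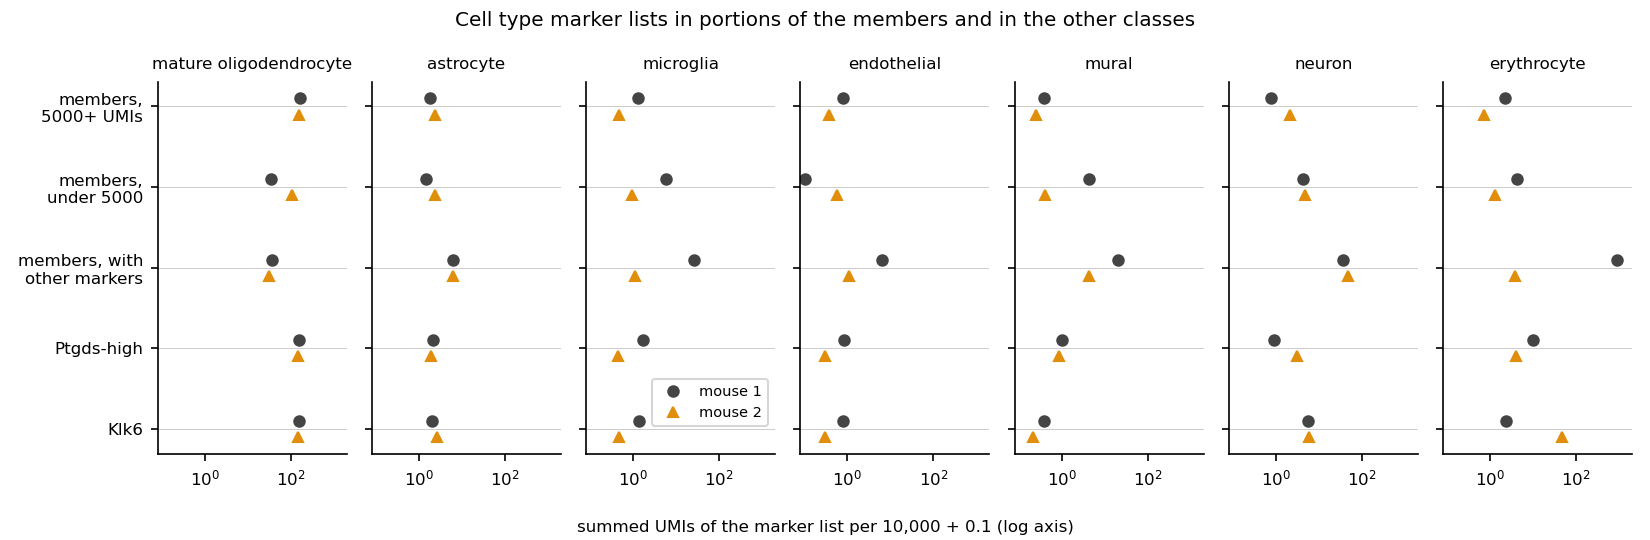
Summed UMIs per 10,000 of 7 marker lists (plus 0.1, log axis) in the 3 portions of the Ptgds-low cells and in Ptgds-high and Klk6 cells; circles are mouse 1 and triangles mouse 2, each the sum over the cells of that portion. Neuron, mural and, in mouse 1, microglia and erythrocyte lists are high in the portion with other markers and low in the deeper portion, and the shallow portion of mouse 1 rests on 3 cells. In mouse 1 the neuron list reached 20 per 10,000 in 5 of the 37 cells with other markers.

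The fixed markers Mobp, Anln and Prr5l were among the genes of the fits below, but are described here by level, without a p-value. Mobp was at 21.4 and 14.7 per 10000 over all Ptgds-low cells and at 27.2 and 23.1 in the deeper ones, against 23.2 and 20.8 in Ptgds-high cells. Anln encodes anillin, an actin-binding scaffold found in myelin, and lies on chromosome 9 (22332012 to 22389188, minus strand, GRCm38). It was at 2.99 and 2.87 over all Ptgds-low cells, 3.79 and 4.59 in the deeper ones, and 2.10 and 1.89 in Ptgds-high cells. Prr5l was at 16.7 and 14.1 over all Ptgds-low cells and at 21.1 and 20.5 in the deeper ones, against 13.1 and 13.0 in Ptgds-high cells. Klk6 cells had Mobp at 23.5 and 21.8, Anln at 3.03 and 3.99, and Prr5l at 14.2 and 15.8. On the scale of the fit given next, with its own library scaling, Ptgds-low minus Ptgds-high was -0.46 for Mobp, 0.39 for Anln and 0.08 ± 0.13 (SE) for Prr5l over all cells (log2), and Prr5l was at 0.20 in mouse 1 and -0.05 in mouse 2. Ptgds-low minus Klk6 was -0.44, -0.35 and -0.06. Anln was thus above Ptgds-high cells in both mice over all Ptgds-low cells, whereas for Prr5l over all cells the sign on the scale of the fit differed between the mice.

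Sums over all Ptgds-low cells were set against Ptgds-high sums in a fit over 12398 genes, leaving out the 11 genes of the rule. With a Benjamini-Hochberg adjusted p below 0.05 and at least a 1.5-fold change in edgeR's quasi-likelihood test, 1414 genes (11.4% of those tested) were higher and 760 (6.13%) lower. The direction was the same in both mice for 1409 and 759 of them, which a call on both mice together favours. Without the mouse in the model no gene passed (1581 and 875 at an unadjusted p below 0.05 with the fold), and none passed with the Ptgds limit at 10 (1348 and 1042). With gates of 0 UMIs 4 genes were higher and 0 lower (996 and 923 at that unadjusted p and fold). DESeq2, with the mouse in the model, called 1376 and 551. The classes were defined on Ptgds in the same cells whose other genes were tested.

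The 10 genes with the largest increases were Nrsn1, Basp1, Gap43, Bex1, Rtn1, Stmn2, Ddah1, Vsnl1, Nefl and Syt4, most of them abundant in neurons. Stmn2, a neuronal microtubule regulator, stood at 1.26 and 2.45 per 10000 in Ptgds-low cells and at 0.086 and 0.231 in Ptgds-high cells. The log2 fold change was 3.46 ± 0.18 (SE, edgeR adjusted p = 0.00163). Gap43, a growth cone protein gene, stood at 1.33 and 2.27 against 0.0493 and 0.272, a log2 fold change of 3.61 ± 0.52 (edgeR adjusted p = 0.0228). A second fit, called the restricted fit, took only cells of all 3 classes with at least 5000 UMIs and without other lists. It used part of the same cells of the same 2 mice, trimmed on their values, so its calls are no separate support. None of the 10 was called in it, with 0.53 for Stmn2, 0.14 for Gap43 and 0.17 for Rtn1 on the log2 scale. Marker lists moved with them: 4 of 8 neuron markers, 6 of 7 microglia markers, 4 of 6 endothelial and 5 of 8 mural markers tested were called higher over all Ptgds-low cells. Of 6 precursor markers tested, Cspg4, Ptprz1, Tnr and Lhfpl3 were called higher and Olig1 lower, with a list median of 1.51. Of 6 mature oligodendrocyte markers, which include Mobp, Anln and Prr5l, 2 (Cldn11 and Opalin) were called lower and 0 higher. Anln and Prr5l of this list count among the higher calls of the restricted fit, as description. In the restricted fit 5 neuron, 7 microglia, 5 endothelial and 2 mural markers could be tested and 0 were called by edgeR, the only tool run there. Over all genes of the restricted fit 2.93% were called higher, so 0 calls in lists this short say little. That fit left out every cell in which one of those 4 lists reached 20 per 10000.

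Among genes lower in Ptgds-low cells, Apoe, the apolipoprotein E gene (chromosome 7, 19696109 to 19699188, minus strand, GRCm38), changed most. It stood at 4.50 and 3.45 per 10000 against 14.0 and 12.6 in Ptgds-high cells, a log2 fold change of -1.91 ± 0.12 (edgeR adjusted p = 0.0025). Bfsp2, which encodes a filament protein, fell from 2.14 and 1.09 to 0.704 and 0.325 (log2 fold change -1.84 ± 0.14, edgeR adjusted p = 0.00266). Il33, the gene of an alarmin cytokine held in oligodendrocyte nuclei (chromosome 19, 29925114 to 29960718, plus strand), stood at 4.01 and 2.93 against 8.51 and 8.47 (log2 fold change -1.48 ± 0.16, edgeR adjusted p = 0.0049). Gstp1, Traf5, Cd63, Cavin3, Cd9, Cryab and Qdpr completed the 10 largest decreases, between -1.75 and -1.46. All 10 were also called lower in the restricted fit, where Apoe was at -1.91 and Bfsp2 at -1.40. As that fit used part of the same cells, this is no separate support.

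**Figure D3:**
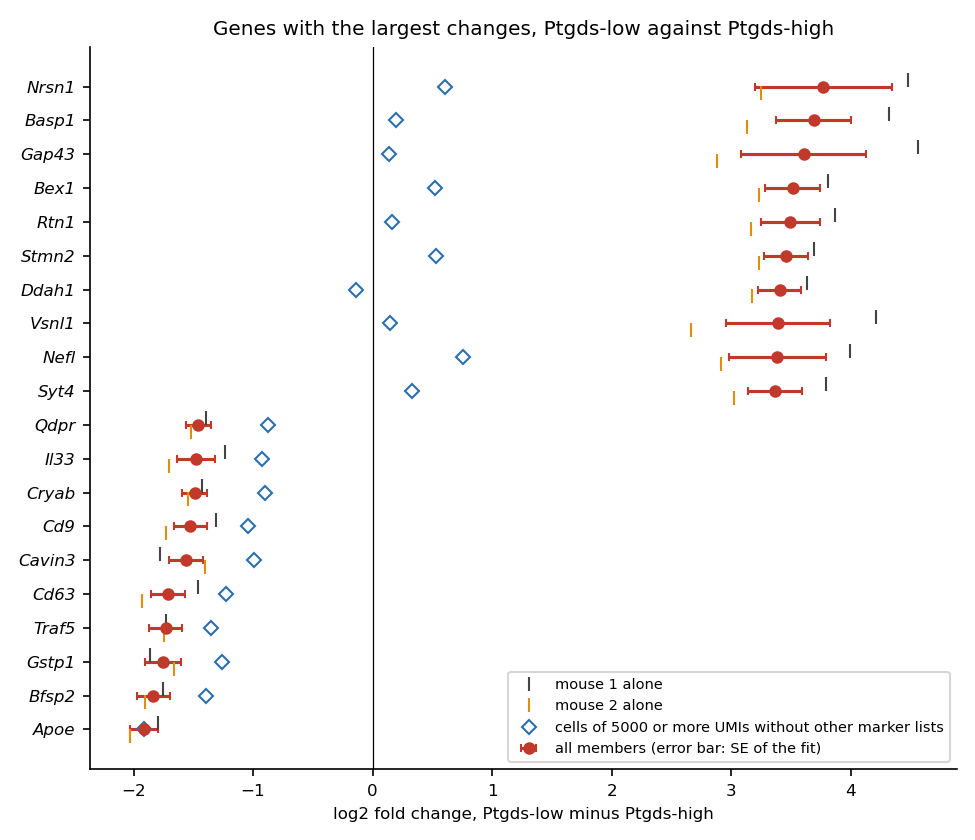
Log2 fold change of the 10 largest increases and 10 largest decreases in Ptgds-low against Ptgds-high cells; red points are the fit over all members with its SE, ticks are each mouse alone, and open diamonds are the fit on cells of 5000 or more UMIs without other marker lists. In the restricted fit the increases lie between -0.14 and 0.75, Apoe lies at -1.91 and Bfsp2 at -1.40.

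By gene group, myelin protein genes were lower over all Ptgds-low cells. The counts below stand beside 11.4% of all tested genes called higher and 6.13% called lower. Of 16 myelin protein genes tested, 12 fell and 0 rose, with a median log2 fold change of -0.82 against -0.01 for all genes. Mal, a membrane raft protein gene of myelin, stood at 28.0 and 21.4 against 57.2 and 47.4 (log2 fold change -1.25 ± 0.10, edgeR adjusted p = 0.0035). Opalin, an oligodendrocyte membrane glycoprotein gene, fell by 1.05 on the log2 scale, and Car2, carbonic anhydrase 2, fell by 1.09. Mbp stood at 37.1 and 28.2 against 42.2 and 41.7 and missed the fold limit. In the restricted fit, where 3.09% of all genes were called lower, 2 of 16 myelin protein genes fell (Mal and Cd9), with a list median of -0.27. Mal was at -0.61, Car2 at -0.49 and Opalin at -0.43 there, and Mbp was at 0.06.

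Lipid and transcription factor genes were called in smaller numbers. Of 23 myelin lipid enzyme genes 6 fell and 0 rose (list median -0.46), Degs1, a dihydroceramide desaturase gene, by 1.13 on the log2 scale, and Scd1, a fatty acid desaturase gene, by 0.97. Of 24 cholesterol synthesis genes 4 fell and 0 rose (list median -0.11), among them the sterol isomerase gene Ebp at -0.93, with Insig1, a sterol sensor gene, at -0.80. Of 19 oligodendrocyte transcription factors 7 fell and 2 rose. Olig2, a lineage-defining factor, stood at 0.872 and 0.848 per 10000 against 1.75 and 1.79 (log2 fold change -1.21 ± 0.11, edgeR adjusted p = 0.00417). Tcf7l2, a Wnt effector of newly formed oligodendrocytes that thalamic neurons also express, rose from 0.891 and 1.19 to 2.67 and 5.17 (log2 fold change 1.73 ± 0.26, edgeR adjusted p = 0.0137). Of 16 newly formed oligodendrocyte genes it was the only one that rose, Arpc1b was among 3 that fell, and in the restricted fit Tcf7l2 was at 0.09. In that fit 0 genes of the lipid enzyme and transcription factor lists were called by edgeR, the only tool run there, and Ebp was the 1 cholesterol synthesis gene that fell (-0.60). Over all genes of that fit 2.93% were called higher and 3.09% lower, so 0 calls in a list of this size do not show that its changes were absent.

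Channel, receptor and axon contact lists held calls in both directions over all Ptgds-low cells. The 3 of 27 axon contact genes and 2 of 18 energy and iron genes that rose, and the 3 of 35 cytoskeleton and trafficking genes that fell, were shares near those of all tested genes (11.4% and 6.13%). Of 23 gap junction and ion channel genes 9 fell, among them the beta subunit gene Atp1b3 (-1.09), and 4 rose, among them the sodium channel gene Scn8a (1.87). Of 35 receptor genes 7 fell and 7 rose, with the GABA receptor subunit Gabrb1 at 2.60 and the neurotrophin receptor Ntrk2 at 1.71. Of 27 node and axon contact genes 3 fell, among them the secreted ligand gene Lgi3 (-0.94), and 3 rose, among them the adhesion molecule Nrcam (2.04). Of 18 energy and iron genes 7 fell and 2 rose, Ldhb, a lactate dehydrogenase subunit gene, at 1.98. Of 35 cytoskeleton and trafficking genes 6 rose, Map1b (1.83) and Kif5a (1.42) among them, and 3 fell. In the restricted fit Scn8a was at 0.61, Gabrb1 at 0.21, Ntrk2 at 0.09, Nrcam at 0.15, Ldhb at -0.07 and Kif5a at -0.04, none of them called, while Atp1b3 was still called lower at -0.62. Stress, hormone and prostaglandin lists fell in few members: 4 of 29 immediate early and stress genes, with Ddit4 at -0.94 and Hsp90aa1 at -0.83; 4 of 17 glucocorticoid response genes, with the metallothionein gene Mt1 at -1.26 and the kinase gene Sgk1 at -1.05; and 2 of 6 prostaglandin genes, Ptges3 at -0.65 and Akr1b3 at -0.61. None of those 3 lists had a member that rose. Of 20 immune and disease response genes 4 fell and 0 rose. Among 81 cytosolic ribosomal protein genes 40 fell and 0 rose.

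Fewer genes were called against Klk6 cells than against Ptgds-high cells. Of the same 12398 genes, 208 (1.68%) were higher and 282 (2.27%) lower. DESeq2 called 440 higher and 282 lower, so that 60.9% of its calls were increases against 42.4% in edgeR. This comparison shares the Ptgds-low sums with the one above. No gene passed with a mitochondrial limit of 5% (1053 and 825 at an unadjusted p below 0.05 with the fold), with gates of 0 UMIs (531 and 620), with the Ptgds limit at 10 (797 and 899) or without the mouse in the model (829 and 621).

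Vtn, the vitronectin gene of pericytes, stood at 2.54 and 0.562 per 10000 in Ptgds-low cells and at 0.110 and 0.0388 in Klk6 cells, a log2 fold change of 4.19 ± 0.25 (edgeR adjusted p = 0.0122). In the restricted fit it was at -0.22 and not called. Ddah1, Prkg1, Tagln3, Basp1, Gpc6, Pitpnc1, Tmsb10, Gria1 and Tubb2a followed, between 2.66 and 1.88. Markers moved with them: 7 of 8 mural, 3 of 7 microglia, 3 of 6 endothelial and 1 of 8 neuron markers (Stmn2) were called higher. Lower genes were led by S100a1, a calcium sensor gene, at 0.567 and 0.488 against 1.71 and 1.24 (log2 fold change -1.53 ± 0.15, edgeR adjusted p = 0.021). The pacemaker channel gene Hcn2 stood at 2.08 and 3.35 against 5.50 and 7.30 (log2 fold change -1.34 ± 0.18, edgeR adjusted p = 0.0276). Fabp5, S100a16, Cavin3, Sec11c, Qdpr, Adi1, Abca8a and Dbi made up the rest of the 10, between -1.23 and -1.13. All 10 were also called lower in the restricted fit, on part of the same cells, between -1.10 for S100a1 and -0.74 for Qdpr and Dbi. Of the 10 increases 0 were called there by edgeR, in a fit without the cells whose mural or neuron list reached 20 per 10000. With cells thinned to 5000 UMIs and the rule applied again, which changed the cells of each class, the direction turned for Abca8a, a lipid transporter gene (0.35), Il33 (0.69), Apoe (0.11), Opalin (0.83), Cd63 (0.10), Sgk1 (0.02), Tmsb10 (-0.13), Tubb2a (-0.18) and Map1b (-0.19).

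In most gene lists against Klk6 cells decreases outnumbered increases, as over all tested genes, where 1.68% were higher and 2.27% lower. Of 16 myelin protein genes 8 fell, with Pllp at -0.97 and Plekhb1 at -0.90. Of 19 transcription factors 4 fell, Nkx6-2 at -0.87 and Olig2 at -0.85. Of 23 lipid enzyme genes 6 fell, with Gltp at -0.89 and Scd1 at -0.83, and of 24 cholesterol genes 2 fell, Ebp at -0.85 and Msmo1 at -0.65. Of 18 energy and iron genes 6 fell, including the glutamine synthetase gene Glul (-1.11), and 1 rose. Of 27 axon contact genes Nrcam (1.09) and Cntn1 (0.93) rose and 1 fell, of 23 channel genes 5 fell with the connexin gene Gjb1 at -1.03, and of 35 receptor genes 2 fell, Gpr62 (-0.81) and Gpr37 (-0.80). Apod, an apolipoprotein gene of the published Ptgds population, stood at 12.3 and 9.52 against 22.6 and 20.6 (log2 fold change -1.09 ± 0.13, edgeR adjusted p = 0.0259). It was among 6 of 10 genes of that list that fell, with Cryab at -1.10. Of 5 genes of the published Klk6 list tested, 0 were called (list median -0.54). S100b, a calcium-binding protein gene, stood at 0.242 and 0.314 against 0.625 and 1.85. The groups did not overlap, but with a log2 fold change of -2.18 ± 0.61 the difference missed the threshold (edgeR adjusted p = 0.14). Opalin, Hapln2, Anxa5, Grm3 and Mbp were not called in this comparison.

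Within the deeper cells a further set of genes set Ptgds-low apart from Ptgds-high. The restricted fit, added after the portions were seen, covered 10625 genes and called 311 higher (2.93%) and 328 lower (3.09%), and 69 and 172 of these were among the calls over all cells. As the cells were trimmed on their values, the genes are described by level only. Cntn3, a contactin adhesion molecule gene (chromosome 6, 102162655 to 102573101, minus strand, GRCm38), stood at 0.615 and 1.27 per 10000 in deeper Ptgds-low cells and at 0.130 and 0.268 in Ptgds-high cells with the same limits. Rapgef5, a small GTPase exchange factor gene, stood at 0.572 and 0.670 against 0.181 and 0.166. The organic anion transporter gene Slco3a1 stood at 3.09 and 3.83 against 1.40 and 1.62. Both mice were higher for each of these genes, as the naming rule required, so that is no separate support.

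Further genes were higher in deeper Ptgds-low cells. Carns1, the carnosine synthase gene, stood at 0.515 and 0.632 against 0.217 and 0.269, and Rftn1, a membrane raft protein gene, at 1.15 and 1.24 against 0.466 and 0.568. Shroom3, an actin-binding protein gene, stood at 1.27 and 1.15 against 0.493 and 0.561. Gsn, the actin-severing gelsolin gene, stood at 5.52 and 4.60 against 3.32 and 3.14, and Anln at 3.79 and 4.59 against 2.13 and 1.95. Hapln2, a link protein gene of the node of Ranvier, stood at 1.67 and 2.28 against 1.24 and 1.38. Grik1, Crybg3, Efr3b and Thsd4 were the other genes of the 10 with the largest increases. Apod was at 15.4 and 14.98 against 17.5 and 12.3, without a call.

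Among lower genes in deeper Ptgds-low cells, Apoe stood at 2.70 and 4.04 against 13.6 and 12.6. Cd9, a tetraspanin gene, stood at 4.22 and 3.43 against 8.17 and 7.46, and Cd63, another tetraspanin gene, at 1.57 and 1.06 against 3.30 and 2.68. Il33 stood at 5.11 and 4.17 against 8.60 and 8.78. Both mice were lower for these 4 genes, which the naming rule also required. Bfsp2, Traf5, Gstp1, Mif, Epas1, Tpi1 and Cavin3 were the other genes among the 10 largest decreases. Cntn1, a contactin gene that over all Ptgds-low cells was at 2.30 and 2.66, stood at 1.69 and 0.844 against 1.92 and 1.71. Of 26 axon contact genes tested in this fit 3 fell (Cntn1, Lrp4 and Nlgn3) and 4 rose (Adam23, Hapln2, Robo1 and Dscaml1).

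Against Klk6 cells with the same limits, the restricted fit called 181 genes higher (1.7%) and 239 lower (2.25%), of which 16 and 67 were among the calls over all cells. Apoe stood at 2.70 and 4.04 against 8.76 and 7.58, and S100a1 at 0.544 and 0.751 against 1.85 and 1.34. Fabp5, a fatty acid binding protein gene, stood at 3.26 and 4.27 against 6.72 and 7.97. Higher genes were led by Fam155a, at 0.544 and 0.615 against 0.103 and 0.331, and Maml2, a Notch coactivator gene, at 1.45 and 0.636 against 0.490 and 0.286. In mouse 1, however, fewer deeper Ptgds-low than Klk6 cells held a UMI of Fam155a (21.1% against 25.6%) or Maml2 (36.8% against 41.1%). In mouse 2 more did (44.7% against 33.6%, and 25.3% against 17.2%). A UMI is found more easily in deeper cells, and the median depth was 15202.5 and 8692 UMIs against 25131 and 14430 in these Klk6 cells. The part of depth in detection was not tested, and an increase across the cells of the class is not shown for mouse 1. Anln stood at 3.79 and 4.59 against 3.29 and 4.31, Hapln2 at 1.67 and 2.28 against 1.74 and 2.75, and Cntn3 at 0.615 and 1.27 against 0.380 and 1.25. Within each mouse Anln and Cntn3 were thus higher and Hapln2 lower in Ptgds-low cells, by little for Cntn3 in mouse 2. Across the mice the values of the 2 classes overlapped for these 3 genes. With 2 mice, and 38 and 217 against 90 and 116 cells, a p above the threshold does not show that the classes were alike.

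The gate on Enpp6 held back 59 and 208 Ptgds-low Klk6-negative cells of 5000 or more UMIs without other lists, while the rule kept 38 and 217. Of 2303 and 3706 cells at the Mog, Mag and Ermn limit, 650 and 1162 had more than 2 Enpp6 UMIs, whereas 41 and 100 exceeded the Gpr17 gate. Cells held back by the Enpp6 gate alone numbered 571 and 1053. Their median depth was 31059 and 19720 UMIs, their Mog, Mag and Ermn sum had a median of 57.4 and 52.1 per 10000, and Gpr17 was at 0.0140 and 0.0103. Klk6 was detected in 62.5% and 66.1% of them. Cells above the Gpr17 gate (33 and 67 within the other limits) carried Fyn at 25.4 and 28.6 and Bcas1 at 23.8 and 29.9 per 10000, genes of newly formed oligodendrocytes, against 0.836 and 0.862 for Fyn and 5.42 and 4.96 for Bcas1 in the cells held back by Enpp6 alone. A limit in UMIs is reached more easily in deeper cells, and Enpp6 at a class level was 0.36 and 0.43 in Ptgds-low cells, 0.11 and 0.15 in Ptgds-high cells and 3.27 and 3.90 in the cells held back.

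With the same depth and marker limits, these 59 and 208 Enpp6-positive cells lay farther from Ptgds-high cells than the deeper Ptgds-low cells did for 4 genes chosen after their values were seen. Anln was at 2.13 and 1.95 per 10000 in Ptgds-high cells, 3.79 and 4.59 in Ptgds-low cells, and 8.23 and 7.87 in these Enpp6-positive cells. Slco3a1 ran through 1.40 and 1.62, 3.09 and 3.83, and 5.11 and 5.47, and Cntn3 through 0.130 and 0.268, 0.615 and 1.27, and 1.73 and 1.94. Il33 ran the other way, through 8.60 and 8.78, 5.11 and 4.17, and 3.01 and 2.36. In each mouse the Ptgds-low cells lay between the other groups for these 4 genes. S100b was an exception in its steps, at 0.276 and 0.209 in Ptgds-high cells, 0.243 and 0.437 in Ptgds-low cells, 1.69 and 1.83 in Enpp6-positive Klk6-negative cells, and 8.57 and 10.5 in Enpp6-positive Klk6 cells. Apoe in mouse 1 was at 2.70 in Ptgds-low cells and 3.54 in Enpp6-positive Klk6-negative cells. Traf5 was lowest in Ptgds-low cells, at 1.95 and 1.14 in Ptgds-high, 0.687 and 0.467 in Ptgds-low and 0.949 and 0.552 in Enpp6-positive Klk6-negative cells, and so was Gstp1, at 4.78 and 1.54, 1.82 and 0.696, and 2.43 and 0.763. Ptgds-low cells also lay apart from both groups in median Fth1 (132 and 117, 8.09 and 55.2, 187 and 152 per 10000) and in ribosomal protein share (3.81% and 3.33%, 0.512% and 1.28%, 3.72% and 3.03%). The Mog, Mag and Ermn sum, which the rule used to admit cells, was lowest in them as well (49.7 and 44.98, 22.3 and 35.7, 58.3 and 51.7). The levels are descriptions, since the groups were defined after values were seen.

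**Figure D4:**
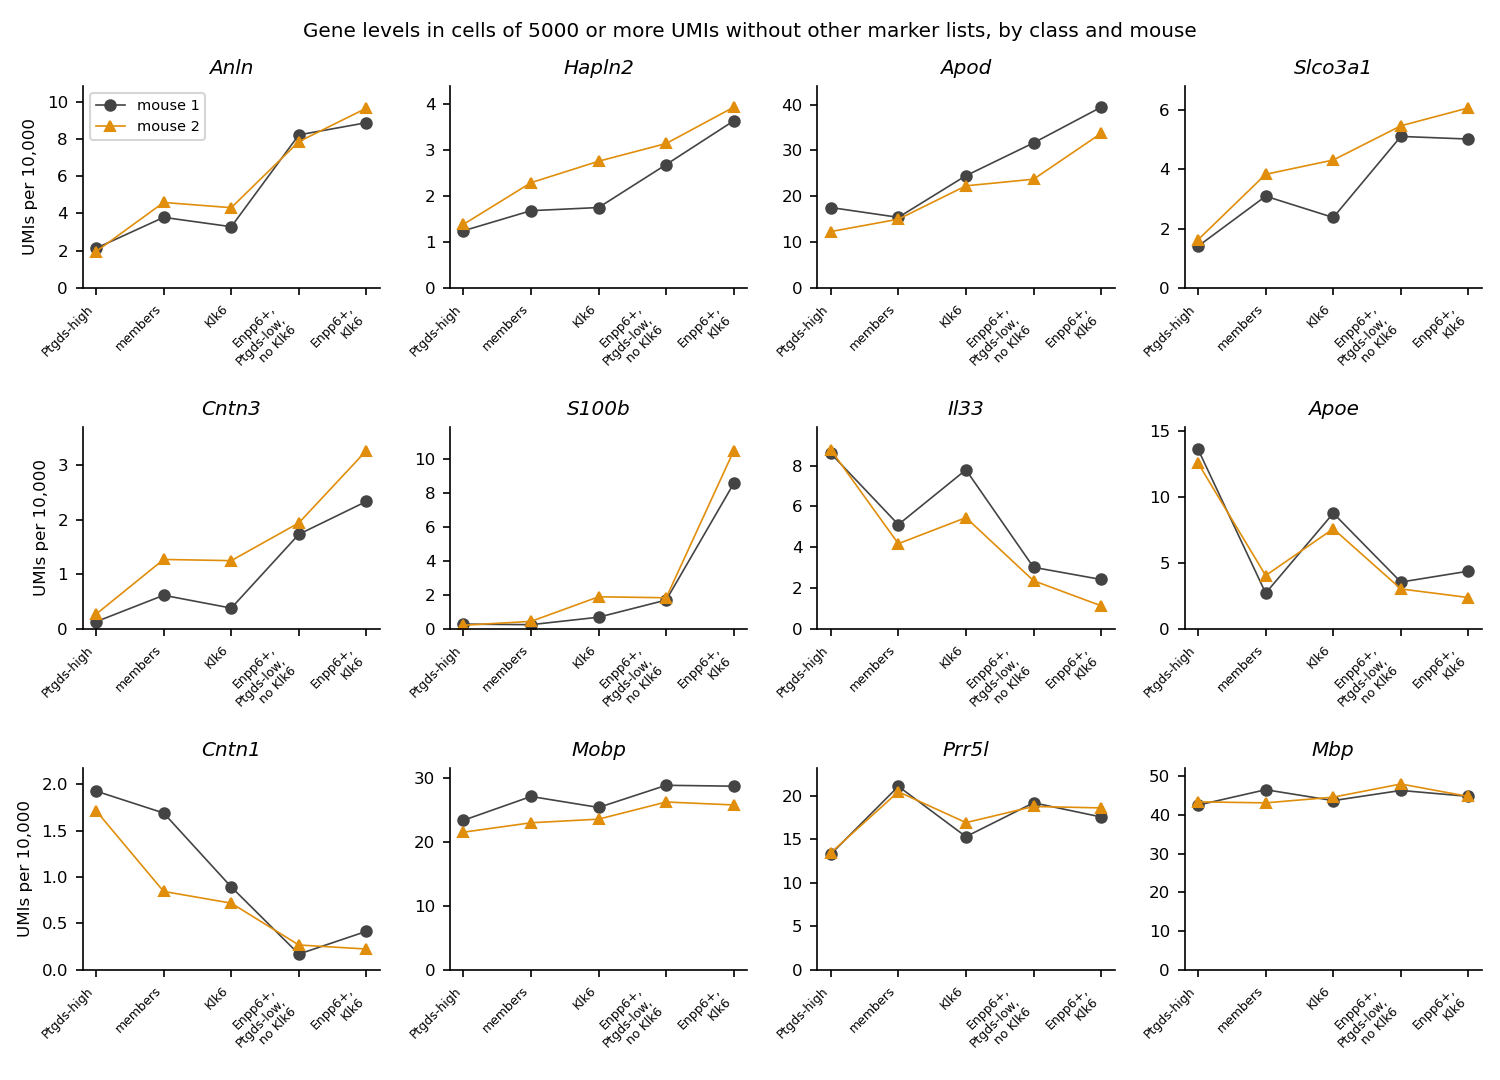
UMIs per 10,000 of 12 genes in cells of 5000 or more UMIs without other marker lists, for Ptgds-high, Ptgds-low (members), Klk6, and Enpp6-positive cells (more than 2 Enpp6 UMIs) without and with Klk6; circles are mouse 1 and triangles mouse 2, and lines join the classes of a mouse. Anln, Slco3a1 and Cntn3 rise from Ptgds-high over Ptgds-low to Enpp6-positive cells, and Il33 falls.

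Along Ptgds itself, gene levels differed between cells within each class as well as across the limit of 20 per 10000. In Klk6-negative cells of mouse 2 with 5000 or more UMIs and no other list, Anln was at 5.23 in cells with Ptgds above 0 and below 5 per 10000 (70 cells), 4.41 at 15 to 20 (29 cells), 3.14 at 20 to 25 (33 cells), and 1.53 at 80 and above (1079 cells). Cntn3 ran from 1.65 to 0.708, 0.434 and 0.194 in the same bins. Il33 ran from 2.83 to 6.56, 6.27 and 9.15, and Apoe from 3.14 to 5.23, 6.03 and 15.1. Kirrel3, a synaptic adhesion molecule gene, was at 4.07, 3.95, 5.12 and 13.4. In mouse 1 the bins below 25 held 0 to 14 cells each, too few for an order. Its bins at 25 to 40, 40 to 80 and 80 and above (32, 154 and 1019 cells) gave Anln at 4.24, 3.63 and 1.86 and Apoe at 7.16, 8.69 and 14.5. Il33 in those bins was at 7.50, 7.76 and 8.75. Over the bins given with at least 20 cells, Anln was lowest and Apoe highest at 80 and above in both mice.

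**Figure D5:**
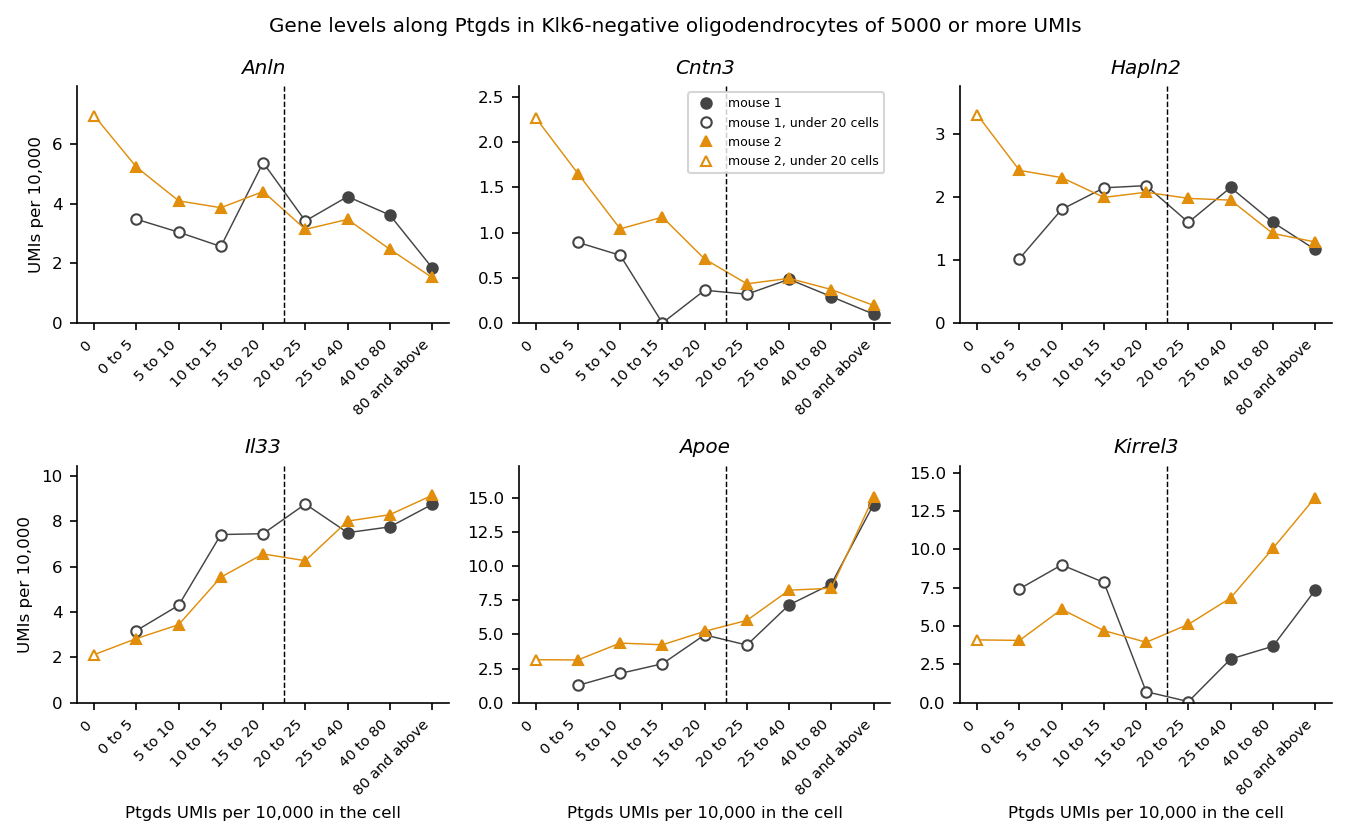
UMIs per 10,000 of 6 genes in bins of Ptgds level in Klk6-negative cells of 5000 or more UMIs without other marker lists; circles are mouse 1, triangles mouse 2, open symbols are bins under 20 cells, and the dashed line is the limit of 20 per 10,000. In mouse 2 Anln, Cntn3 and Hapln2 are lower and Il33, Apoe and Kirrel3 higher at 80 and above than between 0 and 5, with 15.1 against 3.14 for Apoe.

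The number of calls differed between a depth band and thinning. The rule was applied again after thinning, so the classes held other cells, with 177 and 567 Ptgds-low and 174 and 340 Klk6 cells. Thinning was therefore no comparison of the same cells at equal depth. Among cells with 5000 to 20000 UMIs, 239 genes were higher and 57 lower against Ptgds-high cells, and 99 and 13 against Klk6 cells. With cells thinned to 5000 UMIs, 1163 and 345 were called against Ptgds-high cells, of which 661 and 176 were among the calls at full depth. Against Klk6 cells 625 and 273 were called after thinning, of which 81 and 34 were among the calls at full depth. In the thinned fit, with its redrawn classes, Hapln2 was called higher (0.63). It was also called higher in the restricted fit (0.59), although over all Ptgds-low cells it did not pass (-0.06 ± 0.16, edgeR adjusted p = 0.843). Apod was likewise not called over all cells, at 12.3 and 9.52 per 10000 against 17.3 and 11.995. Grm3 and Anxa5 were not called against Ptgds-high cells either.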

How the data were processed

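Thalamic tissue of 2 mice was digested to single cells, and 10x 3' v3 libraries were made, per the labels' protocols. The deposited files hold counts: UMIs per gene and barcode, from Cell Ranger 7.1.0 on mm10, per the submitters' processing notes, which also name Seurat 5 without a role. Intron and strand handling and the annotation: not given in the sources used here. Coordinates are from GENCODE vM21 (GRCm38), in which 32158 of the 32285 gene identifiers were found. Cell classes come from the rule and marker lists.

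Members and gene lists were chosen with earlier results of these data known. Counts were summed per mouse and class (6 sums) and fitted with edgeR 4.0.16 (R 4.3.3): TMM scaling, filterByExpr, robust quasi-likelihood, class plus mouse. The mouse was a block because every class came from the same 2 animals. The spread rests on 2 residual degrees of freedom, with a common biological coefficient of variation of 0.174. Calls needed an adjusted p below 0.05 (Benjamini-Hochberg over all genes tested) and a 1.5-fold change. The 11 rule genes were not tested. Mobp, Anln and Prr5l were among the fitted genes and in the counts of calls, but they are described by level, without a p-value. Some members of the lists are not reported here. On simulated counts, the Ptgds-high comparison recovered 34% of genes changed by 1 and 86% of genes changed by 2 on the log2 scale, with 9 of 12198 unchanged genes called. The Klk6 comparison recovered 29% and 81%, with 11 unchanged genes called. The simulation had no difference between mice and changed 100 genes of each size, drawn from those with higher counts. Its rates therefore need not hold for the comparisons above.

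Named were up to 10 called genes per direction, alike in both mice, at 0.5 per 10000 or more in the higher class in each mouse, without predicted genes, mitochondrial or ribosomal protein genes; up to 2 called members of each of 16 lists; and a fixed set. Scrublet marked 181 and 262 kept cells (2.84% and 2.78%), which stayed in. Alternatives covered DESeq2 1.42.0, filters, limits, depth and, without a new fit, the fold in each mouse alone.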

Additional observations from a re-analysis of the deposited data

How the results depend on the processing

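Counts of genes called higher and lower against Ptgds-high cells (1414 and 760) and against Klk6 cells (208 and 282) moved with most choices of cells. Against Ptgds-high cells, the counts that moved by over 1.5 times were 827 higher with the Mog, Mag and Ermn limit at 10, 4 higher and 0 lower with gates of 0 UMIs (996 and 923 at an unadjusted p below 0.05 with the fold), 345 lower after thinning, 239 and 57 in cells of 5000 to 20000 UMIs, 0 and 0 with the Ptgds limit at 10, 447 lower with it at 40, 188 and 71 for Ptgds below 10 against 40 or more, and 1227 lower with no filter on low counts. Against Klk6 cells they were 0 and 0 with a mitochondrial limit of 5%, with gates of 0 UMIs and with the Ptgds limit at 10, 134 higher with at least 1000 genes and 3000 UMIs, 380 higher with the Mog, Mag and Ermn limit at 10, 625 higher after thinning, 99 and 13 in the depth band, 118 lower with the Ptgds limit at 40, 1181 and 568 for Klk6 cells of 3 UMIs or more, 1196 higher without the Enpp6 gate, 1066 and 641 without the filter, and 440 higher with DESeq2. Alternatives added after seeing the data gave 409 higher (Ptgds-high) and 315 and 503 (Klk6) with other lists below 20. With that limit and at least 5000 UMIs they gave 311 and 328 (Ptgds-high), and 369 and 248 without the Enpp6 gate as well. Without the replicate block for mouse, the counts were 0 and 0 in both comparisons (1581 and 875, 829 and 621 at an unadjusted p). Of the 101 tested values of named genes, all 89 that had a call lost it and 0 of these turned direction. The other 12 had no call in the main fit either. In each mouse alone, 1344 to 1391, 619 to 665, 196 to 207 and 235 to 268 of the called genes kept the fold. These genes had been called on both mice together and no fit was run without a mouse, so this is no replication. The share of Ptgds-low cells became 9.26% and 20.03% after thinning, 9.04% and 10.1% at 5% mitochondrial UMIs, 3.10% and 11.7% with Ptgds below 10, 10.4% and 24.4% with it below 40, 4.09% and 13.7% with gates of 0, 6.81% in mouse 1 without the Enpp6 gate, 3.03% and 14.0% with other lists below 20, 2.84% and 10.7% with that limit and at least 5000 UMIs, and 14.1% in mouse 2 with those limits and no Enpp6 gate. Also chosen after seeing the data, further limits gave 3.28% and 14.5% with at least 1000 genes and 3000 UMIs, 3.48% and 13.7% with the Mog, Mag and Ermn limit at 10, and 11.8% in mouse 2 in the depth band. Among named genes called in at least 1 of the 2 fits compared, directions turned in the restricted fit (at least 5000 UMIs, no other list) against Ptgds-high cells for Ddah1 (-0.14), Ldhb (-0.07), Kif5a (-0.04) and Hapln2 (0.59), and against Klk6 cells for Vtn (-0.22), Tmsb10 (-0.51) and Map1b (-0.01). Of tested genes called in neither, Mbp (0.06), Apod (0.05), Grm3 (0.50) and S100b (0.50) changed sign there against Ptgds-high cells and Mbp (0.03) against Klk6 cells. Thinning, with the rule applied again and so with other cells in each class, turned Hapln2 (0.63) and S100b (2.31) against Ptgds-high cells, and Tmsb10 (-0.13), Tubb2a (-0.18), Abca8a (0.35), Sgk1 (0.02), Cd63 (0.10), Apoe (0.11), Map1b (-0.19), Opalin (0.83) and Il33 (0.69) against Klk6 cells. The depth band turned Ldhb (-0.08) against Ptgds-high cells and Tmsb10 (-0.49) and Map1b (-0.28) against Klk6 cells. Vtn turned at the higher Mog, Mag and Ermn limit (-0.31) and Apoe with Klk6 cells of 3 UMIs or more (0.03). The cause of these moves was not tested. The 78 Ptgds-low cells of mouse 1, with 951628 UMIs, gave the smallest of the 6 sums, and all fits rested on 2 mice.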
